A study of Mus musculus with 15 samples.

Results

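The transcription factor p53 and 30 of its listed target genes were followed through irradiated mouse submandibular glands, from a list of 31 gene symbols among the 39179 genes of the count tables. All 31 symbols matched a gene identifier, and all 31 passed the filter on low counts that left 14300 genes for testing. For brevity the 31 genes, Trp53 (the gene of p53) included, are called p53 targets or members below. Bulk RNA of the submandibular gland (SMG), the large salivary gland under the jaw, had been sequenced in adult male C57BL/6 mice. There were 5 groups of 3 libraries. NT glands were wild type and untreated. IR glands were wild type and were collected 7 days after irradiation of the gland region. IR+GFP, IR+Gli1 and IR+Shh glands were collected at the same 7 days and had also received, by transfer into the gland, a gene for green fluorescent protein, for Gli1 (the transcription factor at the end of the Hedgehog pathway) or for Shh (a ligand that opens it). The radiation dose, the vector, the time of transfer and whether animals were pooled are not given in the sources used here. With 1 time point after irradiation, a level that differs from NT shows a state at day 7 and not its course.

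DNA breaks activate the kinases ATM and CHK2, which release p53 from its inhibitor Mdm2, so that p53 accumulates as a protein and binds DNA. It then raises the transcription of genes for cell cycle arrest (Cdkn1a, which encodes p21), apoptosis (Bax, Bbc3, Pmaip1), nucleotide excision repair and translesion synthesis (Xpc, Ddb2, Polk), redox control and metabolism (Sesn1, Sesn2, Tigar), and secreted or receptor proteins (Gdf15, Fas). Mdm2, Ccng1 and Trp53inp1 also feed back on p53 itself. Control of p53 runs largely through protein stability, so the mRNA of its own gene, Trp53, need not follow its activity.

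The DNA element bound by p53 is a pair of 10-base half-sites, and a match to it near a gene's start is shown here because p53 is known to act on its targets through it. The p53 consensus was searched on both strands in windows of 300 bases (250 before and 50 after the start) taken from RefSeq on GRCm38.p6, with at most 1 base between the half-sites and with the central C and G of each half-site kept. The table held a window for 23 of the 31 members. At most 2 departures from the consensus were found in 3 of these 23 (13%), Cdkn1a, Bax and Ccng1, against 0.807% of 27025 genes with a window. With at most 3 departures the counts were 9 of 23 (39.1%) against 3.27% of all genes, adding Bbc3, Sesn1, Aen, Dcxr, Tigar and Trp53. A match describes letters only. The 2 lines for Cdkn1a and Ccng1 show the closest matches (1 departure each), at chr17:29090928-29090947 on the + strand and chr11:40755462-40755481 on the - strand, which start 51 and 195 bases before the transcript start. The line for Bbc3 shows a match with 3 departures at chr7:16309486-16309505 on the + strand, 97 bases before the start. The line for Bax gives the whole stretch of 250 bases before its start, on the - strand, with a match of 2 departures at chr7:45467079-45467099 that begins 201 bases before the start. All are written 5′ to 3′ on the gene's strand, and capitals mark the match.
Cdkn1a: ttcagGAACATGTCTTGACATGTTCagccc
Ccng1: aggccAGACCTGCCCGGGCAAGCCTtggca
Bbc3: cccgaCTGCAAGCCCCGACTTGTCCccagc
Bax: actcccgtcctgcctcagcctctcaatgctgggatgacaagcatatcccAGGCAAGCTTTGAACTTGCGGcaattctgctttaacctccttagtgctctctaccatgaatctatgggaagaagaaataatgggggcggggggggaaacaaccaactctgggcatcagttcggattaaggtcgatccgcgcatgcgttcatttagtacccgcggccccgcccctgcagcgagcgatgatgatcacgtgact

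The 15 libraries held 18205941 to 41064723 reads assigned to genes. In each group 1 pair of libraries differed by less than the sampling noise and was counted as 1 sample, so every group had n = 2, named here by its library numbers (NT 1, NT 2 and 3, and so on). Whether the samples come from separate animals is not stated, so the tests measure only the spread between these samples. The sample NT 2 and 3 stood apart through 4 genes of the neighbouring sublingual gland, which summed to 34462 CPM (counts per 1000000 reads) there, to 184 CPM in IR+GFP 1 and 2, and to at most 1.52 CPM in the 8 others. Libraries IR+GFP 3 and IR+Gli1 3 had 8.22% and 7.53% of reads aligned to several places, against 2.89 to 4.79% in the rest. Acinar markers of the gland were present in every sample (Aqp5 137 to 380 CPM, and at most 1 of 7 acinar markers at 0 in a sample). The reads of the transferred genes did not check the labels. Mouse Gli1 stood at 0.540 and 0.672 CPM in the samples labelled IR+Gli1, within the range of the NT, IR and IR+GFP samples (0.514 to 0.768 CPM), at 2.69 and 4.24 CPM in those labelled IR+Shh, and Shh had 0 reads in all 10 samples. The species of the transferred sequences is not given.

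Irradiation alone raised 14 of the 31 p53 targets and lowered none, against 0.517% of all tested genes raised and 0.161% lowered (edgeR quasi-likelihood test, Benjamini-Hochberg adjusted p under 0.05 over all 14300 genes, here and below). The median log2 fold change over the 31 members was 0.86, beside -0.02 over all genes. In 24 members both IR samples lay above both NT samples, which 23.9% of all genes did. The 14 comprised 3 of 5 genes of p53 feedback and signalling, 3 of 6 of the cell cycle, 1 of 6 of apoptosis, 2 of 5 of DNA repair, 2 of 5 of metabolism and redox, and 3 of 4 secreted factors and receptors. In bulk tissue, more RNA per cell and more cells of a type that carries it cannot be told apart.

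Among the genes that act on or beside p53, Phlda3, an inhibitor of the kinase Akt, stood at 9.46 and 9.76 CPM in NT and at 45.3 and 43.4 CPM in IR. It rose 4.61-fold (log2 2.21 ± 0.17 SE, adjusted p = 0.000838). Trp53inp1, a nuclear protein that promotes p53 phosphorylation, had 24.2 and 25.2 CPM in NT and 95.4 and 93.5 CPM in IR, a rise of 3.83-fold (1.94 ± 0.14, adjusted p = 0.000719). Zmat3, an RNA-binding protein, had 13.2 and 12.6 CPM in NT and 26.5 and 29.1 CPM in IR, a rise of 2.15-fold (1.11 ± 0.10, adjusted p = 0.0016). In all 3 genes the samples of a group lay close together and the groups did not overlap. Mdm2, the ubiquitin ligase that degrades p53, missed the threshold narrowly, with 36.8 and 35.7 CPM in NT against 51.9 and 52.0 CPM in IR (0.52 ± 0.10, adjusted p = 0.0562). Trp53 itself had 13.1 and 12 CPM in NT and 12.5 and 14.8 CPM in IR, which overlap (0.12 ± 0.16, 95% interval -0.24 to 0.47, adjusted p = 0.76).

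The cell cycle group held Cdkn1a and Psrc1, which with Gdf15 had the largest log2 fold changes of the 31 members in IR against NT. Cdkn1a, the cyclin-dependent kinase inhibitor p21, stood at 1.395 and 1.17 CPM in NT (46 and 32 reads) and at 22.3 and 24.0 CPM in IR (656 and 444 reads). The rise was 17.8-fold (4.16 ± 0.39, adjusted p = 0.00618). Psrc1, a microtubule protein of the mitotic spindle, had 0.121 and 0.0734 CPM in NT, which is 4 and 2 reads, and 1.63 and 2.65 CPM in IR, or 48 and 49 reads. Its fitted rise of 20.4-fold (4.35 ± 0.54, 95% interval 3.15 to 5.56, adjusted p = 0.0105) is loosely bounded because so few reads stand in the untreated samples. Ccng1, cyclin G1, a recruiter of a phosphatase to Mdm2, had 115 and 104 CPM in NT and 274 and 299.9 CPM in IR, a rise of 2.62-fold (1.39 ± 0.12, adjusted p = 0.0016). The remaining members of the group did not pass. Plk3 and Plk2, kinases of the Polo family, had log2 fold changes of -0.60 ± 0.29 (adjusted p = 0.317) and 0.59 ± 0.33 (adjusted p = 0.385). Btg2, an antiproliferative cofactor of mRNA decay, overlapped between groups because NT 1 had 30.97 CPM and NT 2 and 3 had 56.6 CPM, beside 51.4 and 45.9 CPM in IR (adjusted p = 0.804).

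Of the apoptosis genes, only Bax passed the test in IR against NT. Bax, the pore-forming effector at the mitochondrial outer membrane, had 11.7 and 13.1 CPM in NT and 26.4 and 32.6 CPM in IR, a rise of 2.37-fold (1.25 ± 0.18, adjusted p = 0.0174). Bbc3 (Puma), which frees Bax from its inhibitors, had 1.70 and 2.28 CPM in NT and 3.87 and 5.08 CPM in IR. The groups did not overlap, but the difference did not pass (1.17 ± 0.30, adjusted p = 0.111). Aen, an apoptosis-enhancing nuclease, was likewise higher in both IR samples (27.2 and 34.0 CPM against 18.1 and 19.2 CPM) without passing (0.71 ± 0.15, adjusted p = 0.0727). Ei24, a membrane protein of the endoplasmic reticulum, had a difference of 0.30 ± 0.09 (adjusted p = 0.148). Perp, a desmosomal membrane protein and one of the most abundant members, had a difference of -0.06 ± 0.11 (95% interval -0.31 to 0.18) at 259.7 and 241 CPM in NT and 237 and 243 CPM in IR. Pmaip1 (Noxa) was at the edge of detection, with 2 and 8 reads in NT and 14 and 2 reads in IR.

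Polk, the translesion DNA polymerase kappa, had 6.64 and 5.87 CPM in NT and 15.5 and 15.8 CPM in IR, a rise of 2.50-fold (1.32 ± 0.15, adjusted p = 0.00605). Xpc, the damage sensor of nucleotide excision repair, had 16.3 and 16.8 CPM in NT and 28.8 and 24.8 CPM in IR, a rise of 1.62-fold (0.70 ± 0.10, adjusted p = 0.0226). Neither gene overlapped between the groups. The repair endonuclease Ercc5 was 1.41-fold higher without passing (0.50 ± 0.12, adjusted p = 0.0998). Ddb2, which hands damage to Xpc, and Rrm2b, the p53-inducible ribonucleotide reductase subunit, had differences of 0.50 ± 0.32 (adjusted p = 0.456) and 0.06 ± 0.15 (adjusted p = 0.889).

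Sesn2, a stress-inducible inhibitor of mTORC1 signalling, had 7.58 and 7.78 CPM in NT and 20.7 and 22.3 CPM in IR, a rise of 2.80-fold (1.49 ± 0.15, adjusted p = 0.00407). Dcxr, a carbonyl and xylulose reductase, had 32.3 and 42.8 CPM in NT and 71.6 and 73.2 CPM in IR, a rise of 1.93-fold (0.95 ± 0.14, adjusted p = 0.0178). Both were separated from NT in every sample. The related sestrin Sesn1 was 1.58-fold higher but did not pass (0.66 ± 0.22, adjusted p = 0.19), nor did adenylate kinase Ak1 (0.89 ± 0.22, adjusted p = 0.1). Tigar, a regulator of glycolysis, was lower in both IR samples (3.19 and 2.87 CPM against 4.10 and 3.60 CPM) without passing (-0.34 ± 0.20, adjusted p = 0.403).

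Among secreted factors and receptors, Gdf15, a stress-induced hormone of the TGF-beta family, showed the widest spread. It had 0.667 and 2.06 CPM in NT and 33.4 and 19.3 CPM in IR, a rise of 19.9-fold (4.32 ± 0.60, adjusted p = 0.0383). Eda2r, the receptor that binds ectodysplasin A2, was much tighter, with 2.76 and 2.42 CPM in NT and 20.3 and 24.2 CPM in IR, a rise of 8.54-fold (3.09 ± 0.18, adjusted p = 0.000132). Tnfrsf10b, the mouse death receptor for TRAIL, had 0.910 and 1.17 CPM in NT and 3.81 and 3.84 CPM in IR, a rise of 3.67-fold (1.88 ± 0.23, adjusted p = 0.0105). The death receptor Fas had 1.85 and 2.02 CPM in NT and 2.48 and 2.38 CPM in IR and did not pass (0.33 ± 0.26, adjusted p = 0.556).

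The number of targets raised depended on single samples, being 5 without IR 3, 8 without IR 1 and 2, and 8 without NT 2 and 3, the sample with sublingual gland genes, against 15 without NT 1. Eda2r, Phlda3, Trp53inp1, Ccng1 and Zmat3 passed under all 20 alternative settings tried, whereas Gdf15 passed under 7 of them.

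**Figure D1:**
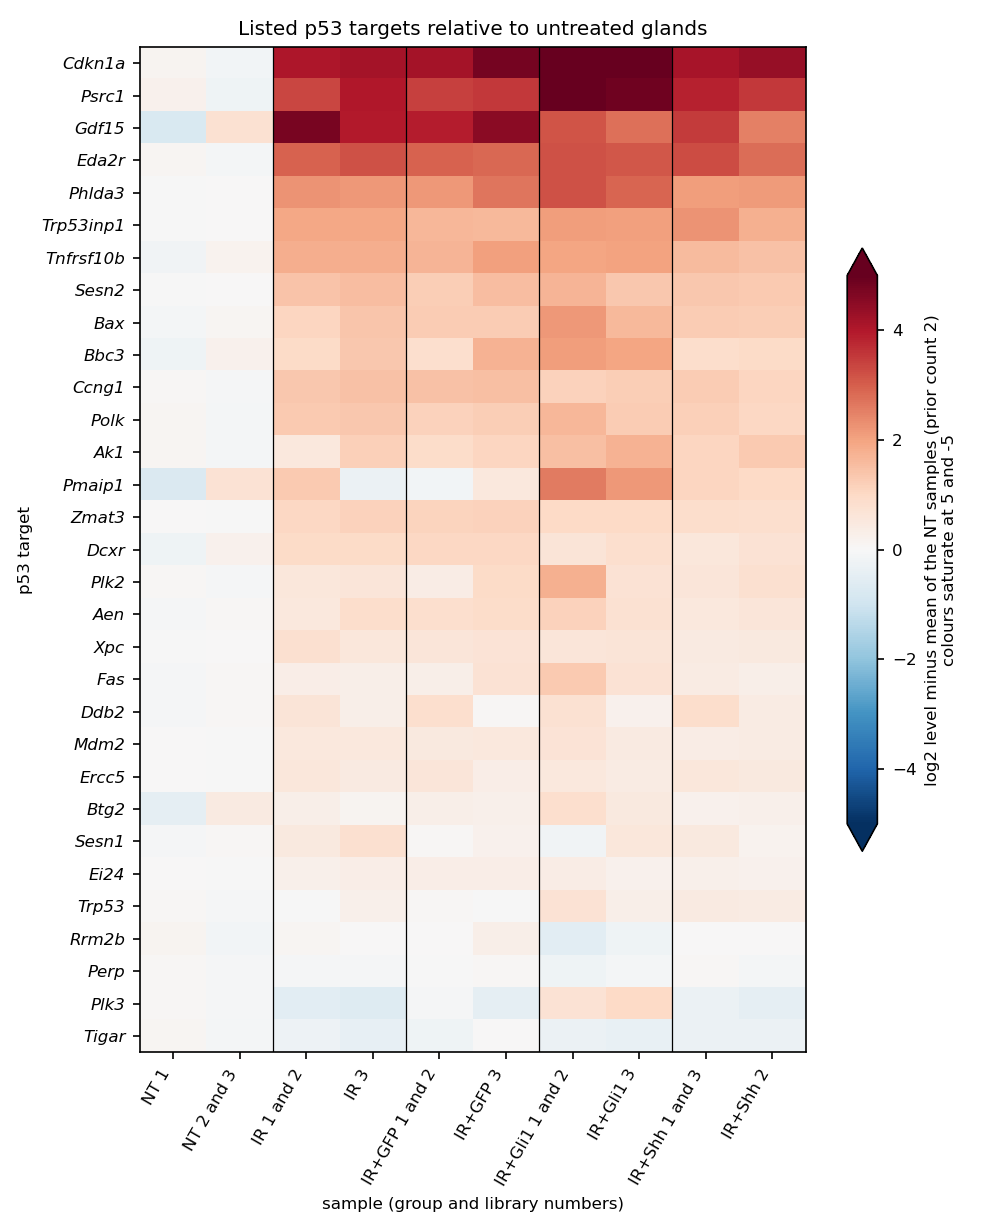
Log2 level of each of the 31 p53 targets (rows) in each of the 10 samples (columns), minus the mean of the NT samples (prior count 2, colours saturating at 5 and -5). Cdkn1a, Psrc1, Gdf15, Eda2r and Phlda3 are strong in all irradiated samples (at least 2.08 above NT), while Perp, Rrm2b and Tigar stay near the NT level.

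The transfer groups were also compared with NT. These comparisons share the NT samples with the one above, so their values are given side by side and lend each other no independent weight. In IR+GFP 15 of 31 targets were raised and none lowered, against 0.622% of genes raised and 0.119% lowered. The 14 genes raised in IR all passed, and Aen joined them (33.5 and 35.7 CPM, 0.89 ± 0.15, adjusted p = 0.0369). In IR+Shh 14 were raised and none lowered, against 1.36% of genes raised and 0.902% lowered. Gdf15 missed the threshold there (14.2 and 7.19 CPM, 3.004 ± 0.60, adjusted p = 0.0564), and Ak1 passed (11.01 and 13.01 CPM, 1.19 ± 0.22, adjusted p = 0.0306). In IR+Gli1 25 were raised and none lowered, but 12.3% of all genes were raised and 11.4% lowered in that comparison. The median log2 fold change over the 31 members was 0.89 in IR+GFP, 0.72 in IR+Shh and 1.08 in IR+Gli1, beside -0.02, -0.00 and 0.03 over all genes. These counts also moved with single samples. In IR+GFP the count fell to 7 without IR+GFP 3, to 8 without IR+GFP 1 and 2, to 8 without NT 2 and 3, and to 7 when the spread was taken from these 2 groups alone. In IR+Shh it fell to 4 without IR+Shh 1 and 3, to 5 without IR+Shh 2 and to 8 without NT 2 and 3. In IR+Gli1 it was 15 with the spread from these 2 groups alone.

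Eda2r shows how a target stood across the 8 irradiated samples. It had 20.3 and 19.5 CPM in IR+GFP, 24.2 and 23.1 CPM in IR+Gli1, then 25.1 and 18.4 CPM in IR+Shh, all at least 18.4 CPM against at most 2.76 CPM in NT. In 23 of the 31 members every irradiated sample lay above both NT samples, against 8.59% of all tested genes. The 8 exceptions were Sesn1 (7 of 8 irradiated samples above both NT samples), Trp53 (6 of 8), Pmaip1 (5 of 8), Plk3 and Btg2 (2 of 8 each), Rrm2b (1 of 8), and Perp and Tigar (0 of 8). The 11 members raised in IR+Gli1 but not in IR against NT were Mdm2, Trp53, Bbc3, Aen, Ei24, Pmaip1, Plk2, Plk3, Ercc5, Ak1 and Fas. Passing in one comparison and not in the other does not show that the groups differ, which the direct comparison with IR+GFP addresses.

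**Figure D2:**
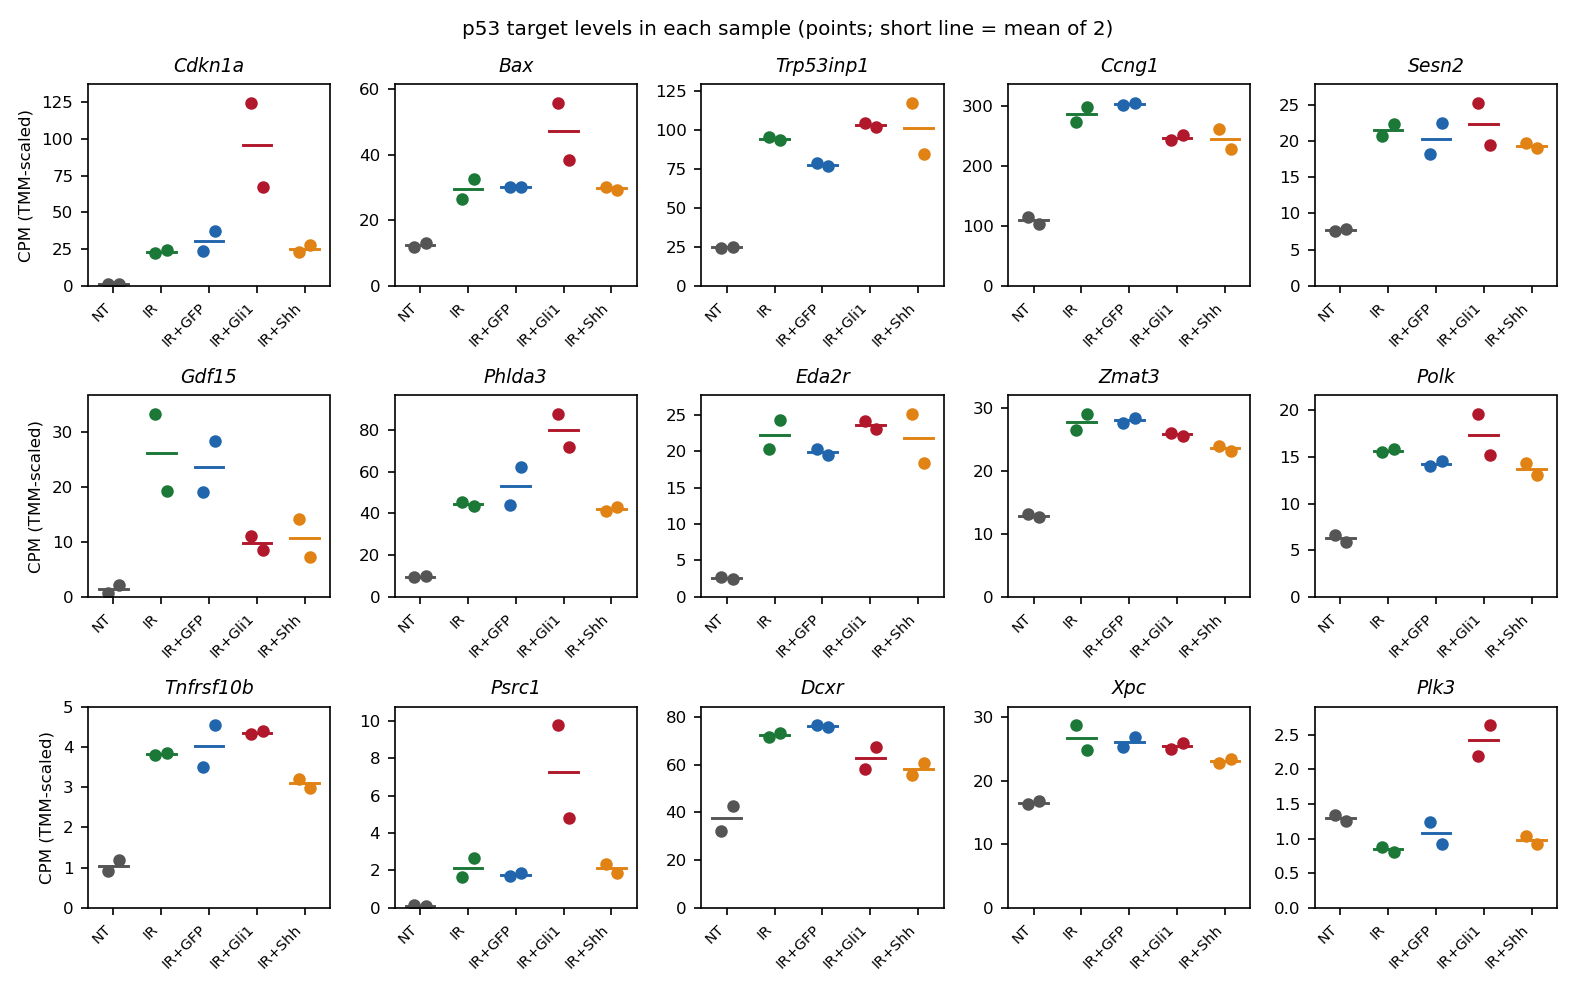
Level in CPM (linear axes from 0) of the 15 targets that passed in IR against NT or in IR+Gli1 against IR+GFP, with 1 point per sample and a short line at the mean of the 2 samples of a group. Cdkn1a, Psrc1, Phlda3, Bax and Plk3 are highest in both IR+Gli1 samples, and Plk3 is at or under its NT level in the other irradiated groups.

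Ranked by CPM per kilobase of exon, which allows levels to be compared between genes, Perp led in NT (mean 128 CPM per kb), followed by Dcxr (32.8), Ccng1 (31.2), Ei24 (16.04) and Btg2 (15.96). In IR the order was Perp (123), Ccng1 (81.8), Dcxr (63.3), Phlda3 (28.4) and Ei24 (19.8). Cdkn1a moved from 0.362 CPM per kb in NT to 6.52 in IR and 27.1 in IR+Gli1. Psrc1 remained a scarce transcript throughout, at 0.0289 CPM per kb in NT and 2.17 in IR+Gli1.

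Transfer of the GFP gene, compared with irradiation alone, changed none of the 31 targets and 0% of all genes (edgeR). At an unadjusted p under 0.05 there were 298 genes, with 1 member among them, and DESeq2 called 0 members. That member was Sesn1, with 29.3 and 36.8 CPM in IR and 22.0 and 24.2 CPM in IR+GFP (-0.51 ± 0.23). The median difference over the members was 0.03 on the log2 scale. The intervals differ greatly in width between genes. For Ccng1 the 95% interval was -0.17 to 0.34, whereas for Gdf15 it was -1.31 to 0.99, so that these samples bound Gdf15 only loosely.

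The samples labelled IR+Gli1 were compared with IR+GFP to ask which targets stood higher than irradiation and transfer alone would leave them. Psrc1, Cdkn1a, Plk3, Bax and Phlda3 were higher, 5 of 31, and none was lower. Over all genes 8.23% were higher and 5.71% lower. The count of 5 thus has a higher background than the counts in IR, IR+GFP and IR+Shh against NT. Its background is lower than that of IR+Gli1 against NT, where 12.3% of genes were raised and 11.4% lowered. The median over the members was 0.15 on the log2 scale, beside 0.01 over all genes. In 14 members both IR+Gli1 samples lay above both IR+GFP samples, against 28.9% of all genes, and in 7 both lay below, against 27.3%.

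Cdkn1a had 24.0 and 37.3 CPM in IR+GFP, against 125 and 67.6 CPM in IR+Gli1. It was 3.16-fold higher (1.66 ± 0.30, adjusted p = 0.0131), and the groups did not overlap, with IR+Gli1 1 and 2 well above IR+Gli1 3. Psrc1 had 1.71 and 1.85 CPM in IR+GFP, against 9.80 and 4.78 CPM in IR+Gli1, 4.14-fold higher (2.05 ± 0.38, adjusted p = 0.00976). Phlda3 had 43.8 and 62.2 CPM in IR+GFP, against 87.7 and 71.8 CPM in IR+Gli1, 1.51-fold higher (0.59 ± 0.16, adjusted p = 0.0356). Bax had 30.2 and 30.1 CPM in IR+GFP, against 55.8 and 38.4 CPM in IR+Gli1, 1.57-fold higher (0.65 ± 0.17, adjusted p = 0.0345). These 4 genes were already above NT in IR, and in each of them IR+Gli1 1 and 2 was the higher sample. Plk3 differed in both respects. It had 1.24 and 0.923 CPM in IR+GFP, at or below the 1.33 and 1.25 CPM of NT, and 2.20 and 2.65 CPM in IR+Gli1, a difference of 2.21-fold (1.14 ± 0.28, adjusted p = 0.0266) in which IR+Gli1 3 was the higher sample. Of these, Cdkn1a, Bax and Plk3 share exon sequence with another annotated gene (AC167363.2 and Tctex1d4 on the opposite strand, Gm45808 on the same strand). For Cdkn1a and Plk3 the counting of reads from the shared stretches depends on the strand setting, which is not given. For Bax, whose neighbour lies on the same strand, that setting would not separate them. Reads that the counting marked as ambiguous between genes were left out, and the effect on these genes is not known.

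The other 26 members did not pass. Pmaip1 came closest, with 3 and 4 reads in IR+GFP against 70 and 23 reads in IR+Gli1 (0.128 and 0.246 against 1.26 and 0.909 CPM, 2.58 ± 0.76, adjusted p = 0.0518). Trp53 had 13.1 and 12.3 CPM in IR+GFP, against 20.8 and 15.3 CPM in IR+Gli1 (0.51 ± 0.16, adjusted p = 0.0602). Both were higher in each IR+Gli1 sample. Bbc3 (0.70 ± 0.29, adjusted p = 0.135), Trp53inp1 (0.41 ± 0.14, adjusted p = 0.0757) and Ak1 (0.64 ± 0.21, adjusted p = 0.0775) were also higher in both samples without passing. On the other side, Gdf15 was lower in both IR+Gli1 samples (11.02 and 8.49 CPM against 19.1 and 28.4 CPM) but did not pass (-1.27 ± 0.50, adjusted p = 0.144). Rrm2b (-0.51 ± 0.15, adjusted p = 0.0564) and Ccng1 (-0.30 ± 0.12, adjusted p = 0.122) lay lower too, and their sign turned to 0.26 and 0.49 when libraries were scaled by total counts. Eda2r and Zmat3, raised against NT in all 4 irradiated groups, had differences of 0.25 ± 0.16 (interval -0.10 to 0.60) and -0.12 ± 0.09 (interval -0.33 to 0.09), and Mdm2 one of 0.07 ± 0.10 (interval -0.15 to 0.29).

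Same-numbered libraries of these 2 groups deviated together, and with their number as a block 7 targets were higher and 1 was lower. Trp53 (0.50 ± 0.13, adjusted p = 0.0312) and Pmaip1 (2.59 ± 0.73, adjusted p = 0.0392) then passed as higher and Rrm2b (-0.51 ± 0.12, adjusted p = 0.0228) as lower (edgeR), beside the 5 named above. Without the block 8.23% of all genes were higher and 5.71% lower. The shares with the block are not given here, so the blocked counts have no background beside them.

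The count of 5 rested on single samples and on scaling. It was 0 without IR+GFP 1 and 2, 1 without IR+Gli1 1 and 2 (Cdkn1a), 8 without IR+Gli1 3, 3 without either IR+Shh sample, and 0 with the spread taken from these 2 groups alone. Under total-count scaling it was 28, with 9660 of all genes higher and 89 lower, and the median over all genes shifted by 0.79 from that on the TMM scale. The members' median was then 0.96, against 0.79 over all genes.

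**Figure D3:**
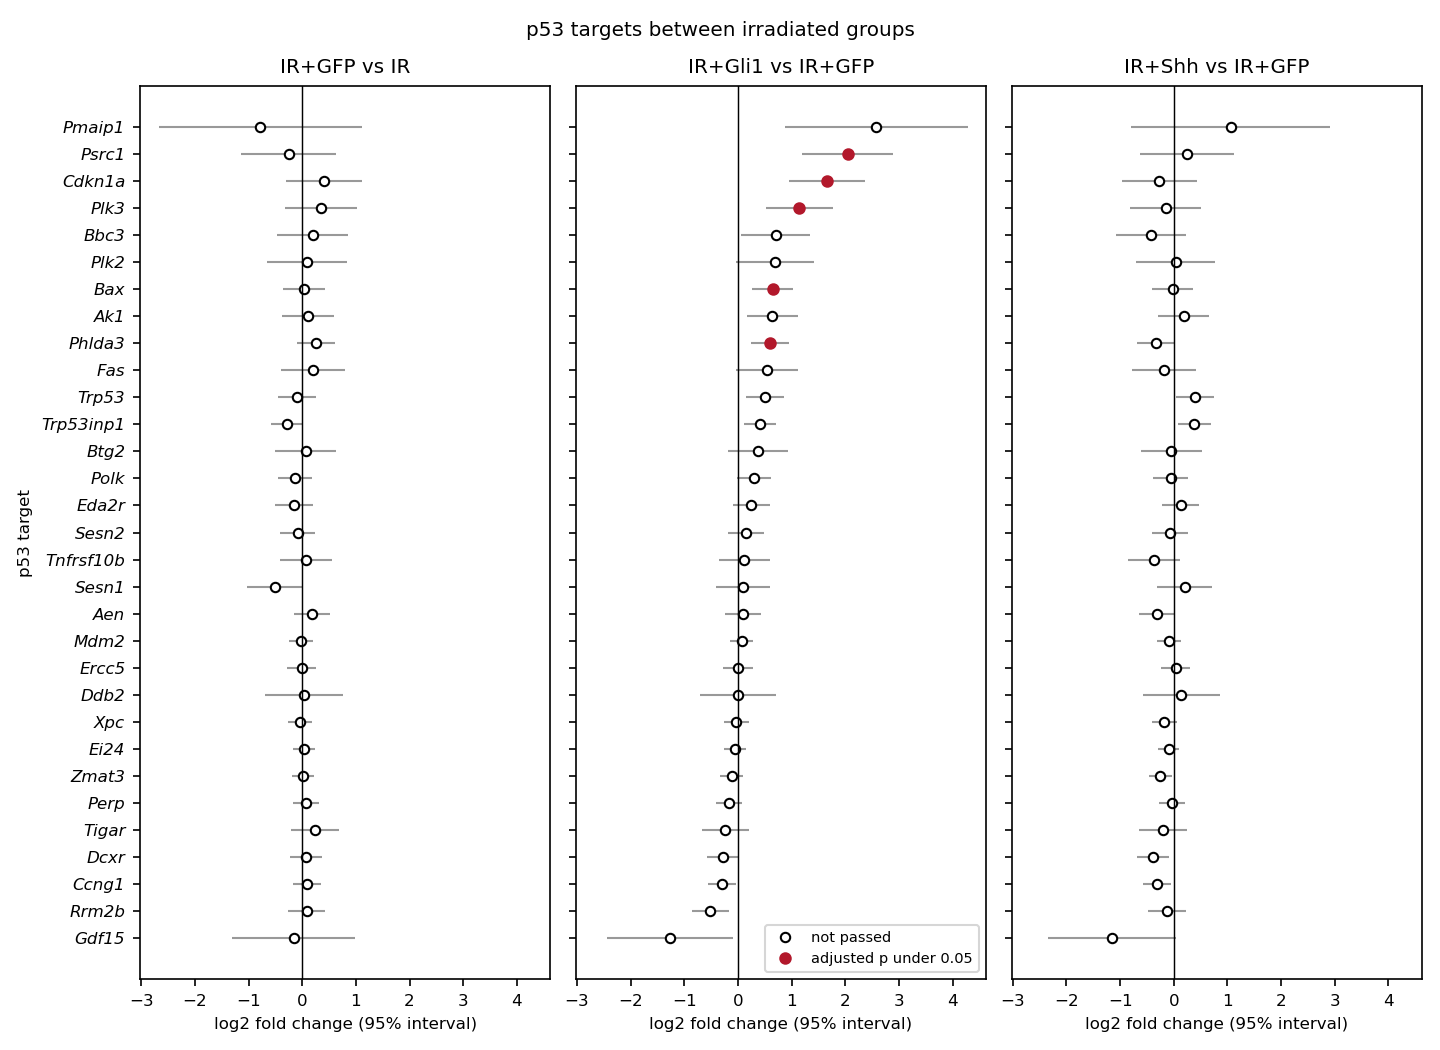
Log2 fold change with its 95% interval for each of the 31 targets in 3 comparisons between irradiated groups, with filled points for an adjusted p under 0.05. Filled points appear only for IR+Gli1 against IR+GFP, where Psrc1, Cdkn1a, Plk3, Bax and Phlda3 passed, while Gdf15 lies farthest to the left.

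Marker lists of other cell types moved with the same samples. The 10 interferon response genes together reached 1351 (IR+Gli1 1 and 2) and 695 CPM (IR+Gli1 3), 198 and 139 CPM in the IR+Shh samples, and 79.2 to 112 CPM in the other 6 samples, and all 10 were higher in IR+Gli1 than in IR+GFP. Lymphocyte markers (8 genes) summed to 40.9 and 16.4 CPM in IR+Gli1 and to 1.08 to 4.55 CPM elsewhere, where up to 4 of them were at 0, with Cd3e at 0.288 and 0.119 CPM in IR+Gli1. Myeloid markers (8 genes) summed to 311 and 221 CPM in IR+Gli1 and to 106 to 206 CPM elsewhere. Of these 8 genes, 4 passed as higher than in IR+GFP and 4 did not pass. The samples of Cd14, Csf1r and Lyz2 overlapped between these groups. Cd14 had 42.4 and 29.7 CPM in IR+Gli1, against 38.0 and 41.1 CPM in IR+GFP. Duct epithelium markers (6 genes) summed to 1170 and 1019 CPM in IR+Gli1 and to 802 to 902 CPM elsewhere, with Krt8 (0.54 ± 0.13, adjusted p = 0.0282) and Krt5 (0.50 ± 0.13, adjusted p = 0.0355) higher than in IR+GFP. The 7 genes of granular convoluted tubules, the secretory ducts of the male gland, summed to 17505 and 40689 CPM in IR+Gli1 and to 61256 to 130551 CPM elsewhere. Of these 7 genes, 5 passed as lower than in IR+GFP and 2 did not pass. Ren1 and Klk1 were not low in both IR+Gli1 samples. Ren1 had 24.9 and 83.4 CPM there, against 68.8 and 76.1 CPM in NT. Klk1 had 2344 and 3659 CPM there, against 3933 and 3546 CPM in NT. Normalization factors were 1.72 and 1.31 in IR+Gli1 and 0.865 to 0.994 in the other samples. As for Cdkn1a, Psrc1, Phlda3 and Bax, IR+Gli1 1 and 2 was the more extreme sample in each of these lists. Of the 6 acinar genes tested, 1 was higher and 2 were lower in IR+Gli1 than in IR+GFP, beside 8.23% and 5.71% of all genes. The part of these cell types and of the interferon response in the 5 differences was not tested. In IR against NT none of the 10 interferon genes passed, and none had an unadjusted p under 0.05, with wide intervals (Isg15 -2.35 to 1.60). Myeloid markers stood lower beside the targets raised in IR, at 206 and 186 CPM in NT and 131 and 129 CPM in IR. None of these 8 genes passed there, but 5 had an unadjusted p under 0.05, all lower (Lyz2, Adgre1, Itgam, C1qa and Csf1r, by log2 values of -1.06, -1.20, -1.29, -0.60 and -0.39). The values for Adgre1 and Itgam rest largely on NT 1. Adgre1 had 19.7 CPM in NT 1 and 7.12 CPM in NT 2 and 3, against 6.73 and 4.87 CPM in IR. Itgam had 8.58 and 3.52 CPM in these NT samples, against 2.58 and 2.38 CPM in IR. Of the 6 duct genes 2 had an unadjusted p under 0.05, Krt8 at -0.31 and Krt5 at 0.37. The part of these cell types in the rise of the targets in IR was not tested.

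**Figure D4:**
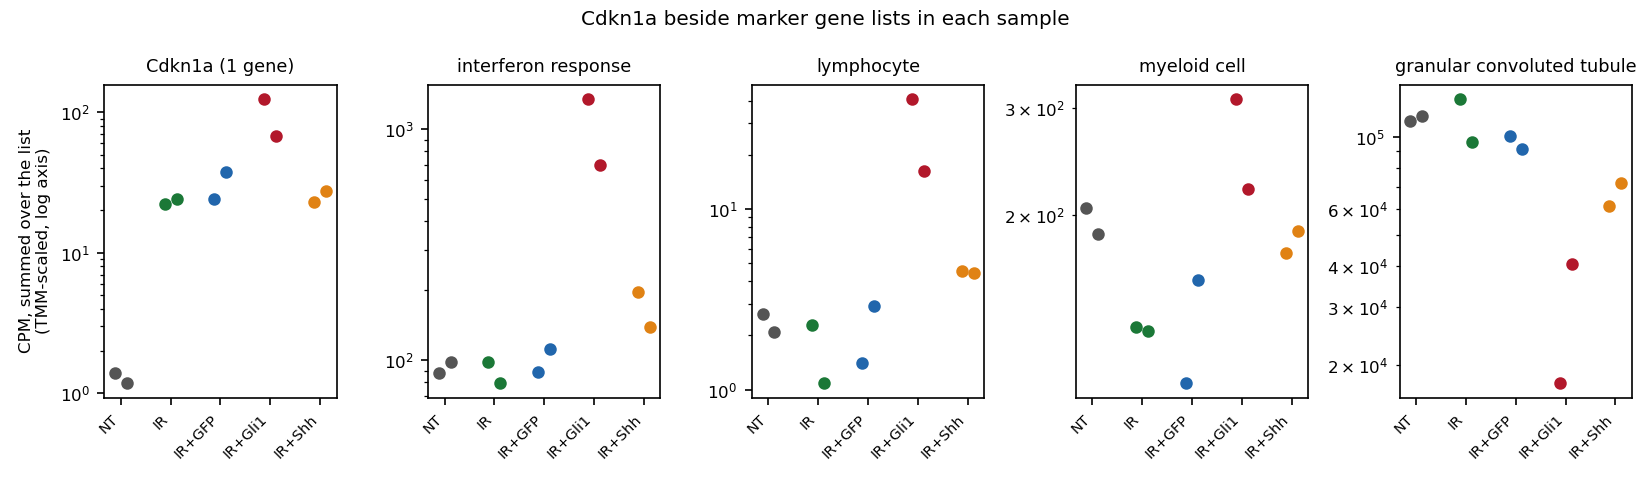
Cdkn1a level beside the summed level of 4 marker lists in each sample, in CPM on log axes, with 1 point per sample. Both IR+Gli1 samples are highest for Cdkn1a, the interferon response, lymphocytes and myeloid cells, and lowest for granular convoluted tubule genes.

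Compared with IR+GFP, the samples labelled IR+Shh showed no target past the threshold, and 0% of all genes passed (edgeR). At an unadjusted p under 0.05 there were 872 genes and 5 members (Trp53inp1, Trp53, Ccng1, Zmat3 and Dcxr), and DESeq2 called 0 members. Both IR+Shh samples lay above both IR+GFP samples in 4 members, against 21.7% of all genes, and below them in 12, against 20.4%. Cdkn1a had 23.1 and 27.5 CPM in IR+Shh, which overlaps IR+GFP (-0.27 ± 0.30, interval -0.97 to 0.44). Gdf15 was the lowest member relative to IR+GFP here as well, at 14.2 and 7.19 CPM (-1.15 ± 0.50, adjusted p = 0.819). Because both transfer groups are set against the same IR+GFP samples, the likeness of their Gdf15 values is not independent.

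The direct comparison of IR+Gli1 with IR+Shh uses neither NT nor IR+GFP samples for its difference. Its IR+Gli1 samples are those already set against IR+GFP, so genes that pass in both comparisons are not independent findings. Against IR+Shh, 6 targets were higher in IR+Gli1 and none lower, against 4.99% of genes higher and 2.76% lower. They were Cdkn1a (1.93 ± 0.31, adjusted p = 0.0172), Psrc1 (1.80 ± 0.37, adjusted p = 0.0238), Plk3 (1.30 ± 0.28, adjusted p = 0.0274), Bbc3 (1.12 ± 0.29, adjusted p = 0.0456), Phlda3 (0.93 ± 0.16, adjusted p = 0.0157) and Bax (0.67 ± 0.17, adjusted p = 0.0446). Bbc3 had 8.57 and 7.98 CPM in IR+Gli1, compared with 3.73 and 3.87 CPM in IR+Shh. Its 2 IR+GFP samples, at 3.58 and 6.70 CPM, spread over that gap. Gdf15 did not separate the groups (-0.12 ± 0.50, interval -1.31 to 1.07). The count was 0 without either IR+Shh sample, 1 without IR+Gli1 1 and 2, 3 without either IR sample and 10 without IR+Gli1 3. It was 0 with the spread from these 2 groups alone and 27 under total-count scaling, where the median over all genes shifted by 0.65.

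Among the regulators of p53 (20 genes listed, 18 tested), Mdm4, the partner of Mdm2 that blocks p53, was the gene raised against NT in all 4 irradiated groups, by 1.02 ± 0.17 (adjusted p = 0.0341) in IR, 1.06 ± 0.17 in IR+GFP, 1.17 ± 0.17 in IR+Gli1 and 1.13 ± 0.17 in IR+Shh. Its levels were 12.5 and 8.88 CPM in NT and 20.1 to 26.0 CPM in the 8 irradiated samples. No other regulator passed in IR against NT, where 0.517% of all genes were raised, and the list's median there was 0.15. In IR+Gli1 against IR+GFP 1 regulator was higher and 2 were lower, of 18 tested. Over all genes 8.23% were higher and 5.71% lower, so these counts do not set the regulators apart. Trp63, the p53 paralogue of basal epithelial cells, was higher (0.78 ± 0.20, adjusted p = 0.0333), and Ppp1r13b (-0.59 ± 0.11, adjusted p = 0.00951), an activator of p53, and the ubiquitin ligase Cop1 (-0.37 ± 0.10, adjusted p = 0.0343) were lower. Under total-count scaling the sign of both turned, to 0.19 for Ppp1r13b and 0.41 for Cop1.

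A further 28 reported p53 targets were listed, of which 26 were tested. In IR against NT 1 was raised and none lowered, beside 0.517% of all genes raised and 0.161% lowered. This was Ephx1, microsomal epoxide hydrolase, at 40.7 and 42.6 CPM in NT and 211 and 232 CPM in IR (2.41 ± 0.13, adjusted p = 0.00011). It kept a like level in the other irradiated samples (218 to 259 CPM) and did not differ between IR+Gli1 and IR+GFP beyond its error (0.12 ± 0.12). Against NT 3 were raised in IR+GFP, 3 in IR+Shh, and 13 raised and 1 lowered in IR+Gli1. The shares of all genes raised were 0.622%, 1.36% and 12.3%, and 11.4% were lowered in IR+Gli1. In IR+Gli1 against IR+GFP 5 were higher and 1 lower, beside 8.23% of all genes higher and 5.71% lower. Tap1, the peptide transporter of antigen presentation, which interferon also induces, had the largest rise (2.58 ± 0.27, adjusted p = 0.00282). Sulf2, an extracellular sulfatase (1.24 ± 0.16, adjusted p = 0.00376), and Tnfaip8 (0.92 ± 0.18, adjusted p = 0.0108) were higher too. Gadd45a, a growth arrest and DNA damage gene, was the one that was lower, at 52.9 and 56.6 CPM in IR+GFP, against 19.6 and 32.1 CPM in IR+Gli1 (-1.09 ± 0.25, adjusted p = 0.0269).

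Cell cycle genes that p21 is known to lower (12 listed, 10 tested) were scarce in every sample, summing to 5.63 to 19.5 CPM. None passed against NT in the 4 irradiated groups (edgeR), and at an unadjusted p under 0.05 there were 0 in IR, 4 in IR+GFP, 0 in IR+Gli1 and 0 in IR+Shh. The list's median log2 fold change was -0.79 in IR+GFP against NT and 0.30 in IR+Gli1 against NT. In IR+Gli1 against IR+GFP only Top2a, the topoisomerase of dividing cells, passed as higher (2.24 ± 0.38, adjusted p = 0.00764), at 4.29 and 2.13 CPM against 0.640 and 0.738 CPM. These IR+Gli1 samples are those in which Cdkn1a was highest. Top2a stood at 2.46 and 2.61 CPM in NT and at 2.47 CPM in both IR+Shh samples. IR+GFP was thus low, and IR+Gli1 3 lay below NT. In this comparison 6 of the 10 genes had an unadjusted p under 0.05 (edgeR), with a list median of 1.28. Over all genes 4220 of 14300 had such a p, and 8.23% passed as higher.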

How the data were processed

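Total RNA of each gland had been made into TruSeq libraries and sequenced on an Illumina HiSeq, per the labels. The deposited values are raw read counts per Ensembl gene from the authors. The submitters' processing notes name, beside mm10 and GRCm38, the tools HTSeq 0.10.0, TopHat2 2.0.13, Bowtie 0.12.2 and DESeq2. Their roles, the strand setting and the annotation release are not given in the sources used here. Reads given to no gene (6.98 to 13.9% of a library) were left out. Symbols came from GENCODE vM21 and matched 96.0% of the 39179 genes.

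Within each group, 1 pair of libraries had a mean chi-square per gene of 0.215 to 0.337, against 22.0 to 223 for other pairs, and was replaced by its rounded mean. The 10 resulting samples were fitted together with edgeR 4.0.16 in R 4.3.3 (quasi-likelihood, robust, TMM scaling, filterByExpr), leaving 5 residual degrees of freedom. Tests were two-sided, and p-values were adjusted over 14300 genes by Benjamini-Hochberg at 0.05. CPM uses the TMM-scaled library size, log2 levels a prior count of 2, and ± is the standard error. On data simulated for IR against NT, with 14026 genes, 65% of genes changed 2-fold and 99% changed 4-fold were recovered. Each simulated gene had the spread of the fitted trend, and only genes with a mean above 1 CPM were changed. These rates therefore do not describe genes of wider spread or lower level.

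Members and gene lists were chosen with earlier results of these data known, so no list is independent evidence. Values in every sample are printed for targets that passed in IR against NT or in IR+Gli1 against IR+GFP, and for others up to 3 a role by smallest adjusted p, besides members named to account for the list. Promoter windows came from RefSeq. Alternatives were DESeq2 1.42.0 and its size factors, total-count scaling, no filter, the deeper library of each pair, 15 separate libraries with and without a replicate block, a block shared by IR+GFP and IR+Gli1, the compared groups alone, and each sample left out.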

Additional observations from a re-analysis of the deposited data

How the results depend on the processing

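No p53 target of the 31 that passed the test changed sign under any alternative run. Of the named genes of the other lists, Ppp1r13b and Cop1 in IR+Gli1 against IR+GFP did, at 0.19 and 0.41 with total-count scaling. Counts of targets raised against NT that moved by over 1.5 times were 7 for IR+GFP and 15 for IR+Gli1 with the compared groups alone. With the 15 libraries kept separate, which counts near-copies as replicates, IR+Shh against NT gave 23. IR+Gli1 against IR+GFP gave 28 higher with total-count scaling, 12 without a filter, 14 with 15 libraries, 0 with the groups alone, and 8 without IR+GFP 3 and IR+Gli1 3 together, a choice made after seeing the data; 2 were lower without a filter and 5 with 15 libraries. IR+Gli1 against IR+Shh gave 27 with total-count scaling, 18 with 15 libraries, 0 with the groups alone, and 11 without IR+GFP 3 and IR+Gli1 3. IR+GFP against IR gave 1 without a filter, and IR+Shh against IR+GFP gave 1 without a filter and 4 with 15 libraries. Leaving out each sample gave 5 to 15 targets raised in IR against NT, 7 to 15 in IR+GFP, 17 to 24 in IR+Gli1 and 4 to 17 in IR+Shh, 0 in IR+GFP against IR and in IR+Shh against IR+GFP, 0 to 8 higher and 0 to 1 lower in IR+Gli1 against IR+GFP, and 0 to 10 in IR+Gli1 against IR+Shh. The cause of these shifts was not tested, beyond fewer samples where a sample or group is left out. For the alternative runs here and below, the shares of all genes called are not given. Their counts therefore show only how far the member counts move. A lone sample is assumed to vary like the other groups.

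Of 30 pairs of same-numbered libraries, 3 correlated above 0.1 in their deviations from the group means. All 3 joined an IR+Gli1 library to its IR+GFP counterpart, with r between 0.33 and 0.395, and the other 27 reached at most 0.0908. Libraries 1 and 2 of both groups are near-copies, so these 3 values rest on 1 contrast, library 3 against the rest, and IR+GFP 1 with IR+Gli1 2 (r = 0.376) correlated as well. With that contrast as a replicate block among the 10 samples, a fit chosen after seeing the data, IR+Gli1 against IR+GFP gave 7 higher and 1 lower. With the replicate block in 15 libraries the counts were 23 for IR+Shh against NT, 13 higher and 5 lower for IR+Gli1 against IR+GFP, 3 for IR+Shh against IR+GFP and 17 for IR+Gli1 against IR+Shh, against 23, 14, 5, 4 and 18 for the same 15 libraries without the block. Low reads limit Psrc1 in NT and Pmaip1 throughout.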
